A study of Mus musculus with 8 samples.

Results

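The RNA of mitochondrial complex I was followed in mouse myeloid progenitors with added Trim27, through 43 nuclear genes that encode its subunits and the Ndufaf group of assembly factors. They were chosen by symbol: names built from Nduf, 1 of the series letters a, b, c, s, v or af, and a number, with at least 100 counts over the 8 libraries. Of 33435 named genes in the table, 44 symbols had this form. The remaining one, Ndufa4l2, had 2 counts in all. By textbook role the 43 genes were 7 core subunits, 28 accessory subunits, 7 assembly factors and Ndufa4, which is now counted as a subunit of complex IV. The progenitors came from hematopoietic stem and progenitor cells of C57BL/6J fetal liver at embryonic day 14.5. They received either a Trim27 virus or, as control, a GFP virus, which the series text calls an empty vector; Trim27 is a ubiquitin ligase of the tripartite motif family. Myeloid progenitors were then sorted, so both groups share the strain, the stage, the viral infection and the sort, and differ in the insert. The sources used here do not give the promoter that drives the insert, the sort gates or the number of animals. Each group has 4 libraries, and each p-value reflects no more than the spread among them, which may be technical.

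Complex I, NADH:ubiquinone oxidoreductase, takes electrons from NADH, passes them through flavin and iron-sulfur clusters to ubiquinone, and pumps protons across the inner mitochondrial membrane. The core subunits carry out this chemistry. Those of the arm in the matrix are encoded in the nucleus and those of the membrane arm on the mitochondrial genome, and accessory subunits surround both arms. Assembly factors bind intermediates while modules named N (NADH binding), Q (quinone binding) and P (proton pumping) are joined, and they are absent from the finished enzyme. In adult bone marrow, resting stem cells rely largely on glycolysis and their progeny raise oxidative phosphorylation as they differentiate. Whether this holds for the fetal liver cells used here was not tested.

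GFP libraries held 9257889 to 10747794 counts and Trim27 libraries 10551137 to 16366571, and 11131 to 11850 genes were detected in the former against 12962 to 13283 in the latter. Across genes, which are not replicates, log2 values of libraries from the same group correlated at 0.9846 to 0.9934, and those of libraries from different groups at 0.7341 to 0.7546. Trim27 itself rose from 180.5 ± 8.52 to 292.7 ± 18.4 CPM (SD, n = 4 each), in counts scaled between libraries by edgeR's TMM factors. All 9 myeloid progenitor markers listed were detected; their summed level ranged from 1557 to 1671 CPM in the GFP libraries and from 1118 to 1285 CPM in the Trim27 libraries. Other markers moved too. The summed level of the 6 erythroid markers in the table ranged from 1581 to 1623 CPM with GFP and from 982 to 1126 CPM with Trim27, that of 5 megakaryocyte markers from 1019 to 1101 and from 787 to 821 CPM, and that of 6 B cell markers from 39.4 to 85.3 and from 18.7 to 26.7 CPM. These sums include markers that rose, named after their values were seen. Alas2 and Tfrc of the erythroid list had log2 fold changes (Trim27 over GFP) of 2.06 and 0.47. Spi1 of the myeloid list had 0.83 and Itga2b of the megakaryocyte list 0.61. In the test described below, 7 of 9 myeloid, 4 of 6 erythroid, 3 of 5 megakaryocyte and 4 of 5 tested B cell markers fell. By the same test 38.0% of all tested genes were lower and 47.5% higher. The 7 macrophage markers summed to 0 to 0.957 CPM and to 9.69 to 11.9 CPM, with C1qa, C1qc, Mrc1, Marco and Cd163 at 0 in all libraries. The Trim27 sum came from Adgre1 alone (listed as Emr1), with a mean of 10.8 CPM, and the GFP sum from C1qb in GFP replicate 3. The 6 hepatocyte markers summed to 1.20 to 1.70 CPM and to 14.3 to 16.4 CPM, with Alb, Ttr, Apob and Hnf4a at 0 throughout. These sums came from Afp (means of 1.42 CPM with GFP and 9.25 CPM with Trim27) and Apoa1 (0 and 6.05 CPM). The part of these shifts in the results below was not tested.

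Most complex I subunit mRNAs were lower with Trim27, and the strongest rises among the members were those of assembly factors. In the quasi-likelihood test of edgeR, at a Benjamini-Hochberg adjusted p below 0.05 over the 11040 genes tested, 33 members fell, 5 rose and 5 did not pass. The background is large: 85.5% of all tested genes passed, 47.5% as higher and 38.0% as lower. All 43 members passed the filter on low counts. Their median log2 fold change (Trim27 over GFP) was -0.77, with a range from -1.58 to 2.50, against a median of 0.14 over all tested genes. The GFP and Trim27 libraries did not overlap for 33 members that were lower with Trim27 and 5 that were higher, where 35.4% and 45.3% of all tested genes were apart in these directions and 80.7% in either. A log2 fold change of -1 or below was found for 12 members and for 16.1% of all tested genes. In bulk libraries of sorted cells, fewer cells of a type and less RNA per cell cannot be told apart. With library size alone as scaling, 28 members fell and 11 rose, and the median of all tested genes moved to 0.44. After removal of each library's trend with transcript length 29 fell and 7 rose, and after removal of the trend fitted on abundant genes (a mean of at least 6 log2 CPM) 17 fell and 15 rose. Over all tested genes 3106 fell and 6277 rose with library size alone, and 4859 fell and 4407 rose with the length trend removed. With that of abundant genes removed, 3219 of all tested genes fell and 5953 rose, with a median of 0.37.

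**Figure D1:**
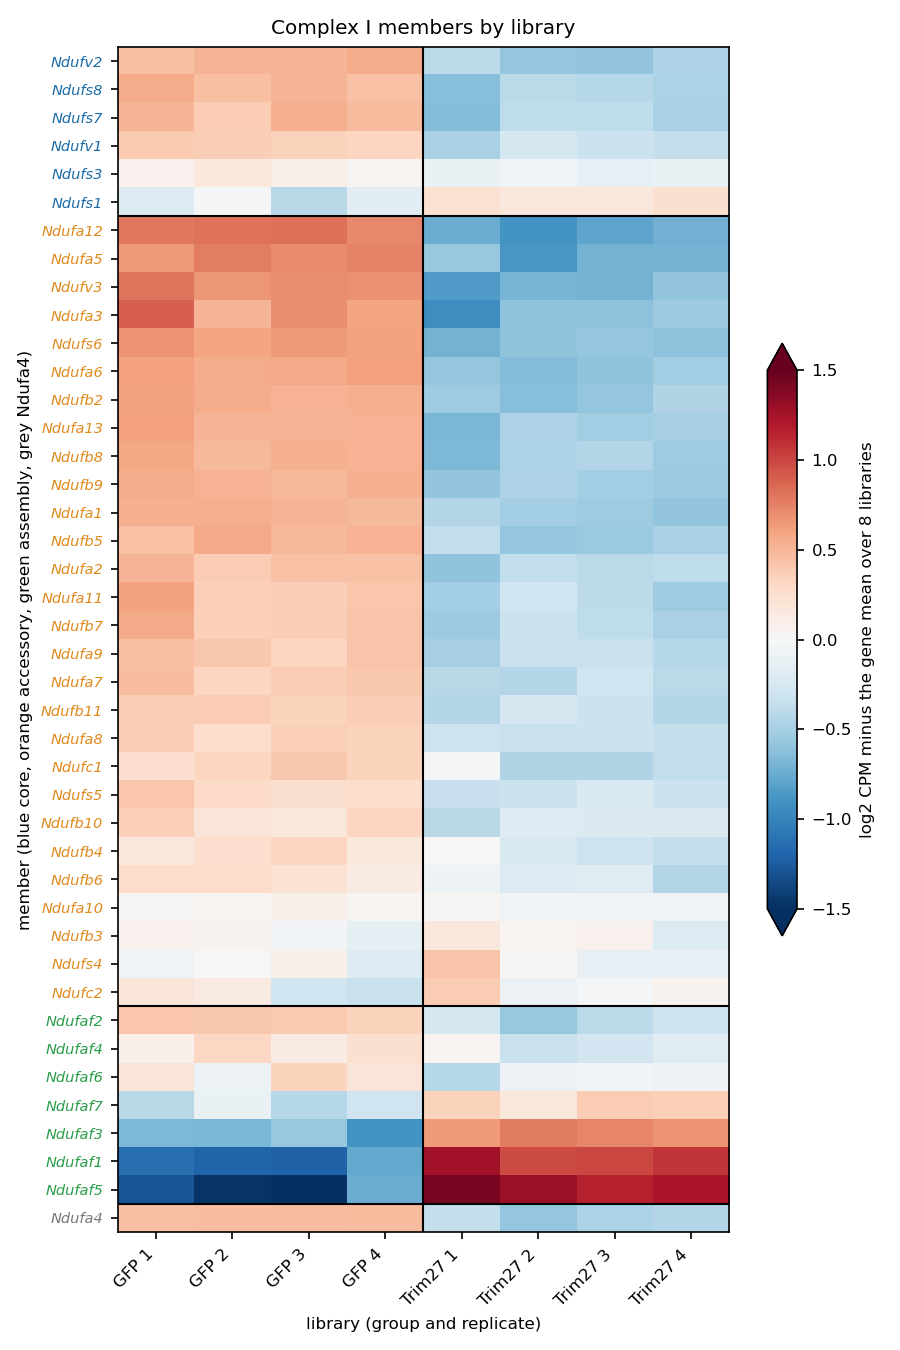
Level of 42 of the 43 members in each of the 8 libraries, as log2 CPM minus the gene's mean over the 8 libraries (colour scale, with values past 1.5 in either direction shown at the end colour); rows are members by class and columns are libraries by group and replicate. Most core and accessory rows are red in the GFP columns and blue in the Trim27 columns, and Ndufaf5, Ndufaf1, Ndufaf3 and Ndufaf7 show the opposite pattern.

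Among the nuclear core subunits 5 of 7 fell and Ndufs1 rose, with a median log2 fold change of -0.72. Ndufv2, an iron-sulfur subunit of the N module, stood at 1079, 1116, 1116 and 1160.2 CPM in GFP replicates 1 to 4 and 597, 526, 521 and 572 CPM in Trim27 replicates 1 to 4 (log2 fold change -1.01, SE 0.05, adjusted p = 1.05e-17 by edgeR's quasi-likelihood test). Its highest Trim27 library lay well under its lowest GFP library. Ndufv1, the subunit that binds NADH and the flavin, was measured at 939.9, 921, 910.3 and 894 CPM in GFP replicates 1 to 4 and 509, 594, 572 and 557 CPM in Trim27 replicates 1 to 4 (log2 fold change -0.72, SE 0.05, adjusted p = 2.56e-14 by the same edgeR test). Here too the groups were apart, with Trim27 replicate 1 lowest of all. Ndufs7 and Ndufs8 hold the last iron-sulfur clusters before ubiquinone. Ndufs8 gave 783, 722, 756 and 716 CPM in GFP replicates 1 to 4 and 340.2, 399, 393 and 383 CPM in Trim27 replicates 1 to 4 (log2 fold change -0.98, SE 0.05, adjusted p = 9.73e-17 in the edgeR test). For Ndufs7 the values were 1037, 951, 1056 and 1017 CPM in GFP replicates 1 to 4 and 466, 559.8, 561 and 519 CPM in Trim27 replicates 1 to 4 (log2 fold change -0.95, SE 0.05, adjusted p = 6.30e-16 in the edgeR test). In both genes every Trim27 library was below every GFP library, and Trim27 replicate 1 was the lowest.

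Ndufs3 changed by a small amount and Ndufs1 went up. Ndufs3, a Q-module subunit with a near copy in Gm12251 (98.6% identity), had 196, 209, 199 and 192 CPM in GFP replicates 1 to 4 and 174, 181, 172 and 175 CPM in Trim27 replicates 1 to 4 (log2 fold change -0.18, SE 0.05, adjusted p = 0.00154 by edgeR's test). The groups did not overlap, but the distance between them was small beside those of Ndufv2, Ndufs7 and Ndufs8, and the log2 fold change was 0.12 with library size alone and 0.04 or 0.29 with the length trend of all or of abundant genes removed. Ndufs1, the largest nuclear core subunit and a carrier of iron-sulfur clusters, had 72.2, 82.4, 62.3 and 74.7 CPM in GFP replicates 1 to 4 and 97.2, 92.9, 93.7 and 98.6 CPM in Trim27 replicates 1 to 4 (log2 fold change 0.39, SE 0.07, adjusted p = 7.96e-06 by edgeR's test). All Trim27 libraries of Ndufs1 lay above all GFP libraries. It has the longest transcript of the core genes, 2661 bases, and its log2 fold change was -0.01 with the length trend removed. The annotation places Ino80dos over 320 exon bases of Ndufs1 on the opposite strand, and counts of the 2 genes cannot be told apart without strand. Per kilobase of transcript, Ndufs1 was also the least abundant core mRNA in the GFP group, at 27.4 CPM per kb against 1339.8 CPM per kb for Ndufs7.

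Accessory subunits were mostly lower with Trim27: 24 of 28 passed as lower, none passed as higher, and the median log2 fold change was -0.86. By edgeR's quasi-likelihood test none of the 4 others, Ndufa10, Ndufb3, Ndufs4 and Ndufc2, had an unadjusted p under 0.05, and DESeq2 called no accessory gene higher. The largest fall was that of Ndufa12, which takes the place of its paralog, the assembly factor Ndufaf2, late in assembly. It stood at 173, 175, 177 and 165 CPM in GFP replicates 1 to 4 and 59.6, 53.6, 57.5 and 60.5 CPM in Trim27 replicates 1 to 4 (log2 fold change -1.58, SE 0.06, adjusted p = 3.86e-20 by edgeR's test), with wide space between the groups. The table also lists Gm15920, a predicted gene with a stretch of 402 bases at 99.5% identity to Ndufa12, so reads may be split between them; it had 2700 counts in the GFP libraries together and 1743 in the Trim27 libraries.

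The next falls came from all parts of the enzyme. Ndufa5, a Q-module subunit, had 80.5, 88.2, 84.9 and 86.4 CPM in GFP replicates 1 to 4 and 35.0, 28.3, 31.6 and 31.7 CPM in Trim27 replicates 1 to 4 (log2 fold change -1.43, SE 0.07, adjusted p = 9.24e-17 by edgeR's test). Ndufv3, the small accessory subunit beside Ndufv1 and Ndufv2, had 434, 396, 404 and 400.1 CPM in GFP replicates 1 to 4 and 138, 154, 153 and 165 CPM in Trim27 replicates 1 to 4 (log2 fold change -1.42, SE 0.05, adjusted p = 8.39e-20 by edgeR's test). In both genes the groups were far apart, and the lowest library was a Trim27 library, replicate 2 for Ndufa5 and replicate 1 for Ndufv3. Ndufa3, a small membrane subunit of the P module, had 72.5, 55.4, 63.3 and 58.4 CPM in GFP replicates 1 to 4 and 20.3, 25.6, 25.4 and 26.6 CPM in Trim27 replicates 1 to 4 (log2 fold change -1.35, SE 0.09, adjusted p = 7.36e-14 by edgeR's test). Ndufa3 spread more than its neighbours, with GFP replicate 1 highest and Trim27 replicate 1 lowest. Ndufs6, a zinc-binding subunit at the joint of the N module, had 719, 680.2, 704 and 688 CPM in GFP replicates 1 to 4 and 275, 297, 302 and 295 CPM in Trim27 replicates 1 to 4 (log2 fold change -1.25, SE 0.05, adjusted p = 4.26e-20 by edgeR's test). Ndufa6, a subunit of the LYR protein family that contacts the acyl carrier subunit, had 489.6, 471, 475 and 489.8 CPM in GFP replicates 1 to 4 and 214, 204, 209.8 and 222 CPM in Trim27 replicates 1 to 4 (log2 fold change -1.18, SE 0.05, adjusted p = 2.20e-19 by edgeR's test). Neither gene had overlapping groups, and the 4 Trim27 libraries of each were close together.

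Of the other 18 accessory genes that fell, Ndufb2, Ndufa13, Ndufb8, Ndufb9 and Ndufa1 had log2 fold changes from -1.11 to -1.03. Ndufa13, also known as GRIM-19, was first described as a factor in interferon and retinoic acid induced cell death. Ndufb5, Ndufa2, Ndufa11, Ndufb7, Ndufa9, Ndufa7 and Ndufb11 followed with -0.997 to -0.73. Ndufa9 sits near the quinone site, and Ndufa2 has a thioredoxin-like fold. Ndufb5 and Ndufa13 share 530 and 375 exon bases with Mrpl47 and Tssk6 on the opposite strand, so their counts are uncertain. Ndufb6 shares 257 with Smim27, also on the opposite strand. On the same strand, Ndufb2, Ndufb8 and Ndufb9 share 145, 134 and 193 exon bases with Gm42420, Gm20538 and Gm49356. The counts of these genes are uncertain too. The smallest falls were those of Ndufa8, Ndufc1, Ndufs5, Ndufb10, Ndufb4 and Ndufb6, from -0.67 to -0.44. Ndufa8, Ndufs5 and Ndufb10, with Ndufb7, carry the cysteine motifs of proteins folded in the intermembrane space. The direction of 8 of the 18 depended on the length offsets: with the trend removed Ndufb6, Ndufc1 and Ndufs5 gave 0.07, 0.23 and 0.03, and with the trend of abundant genes removed these 3 and Ndufa1, Ndufa7, Ndufa11, Ndufb4 and Ndufb10 were above 0.

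Ndufa10 has the fold of a deoxynucleoside kinase. It had 375, 379, 392 and 379 CPM in GFP replicates 1 to 4 and 374, 359, 359 and 354 CPM in Trim27 replicates 1 to 4 (log2 fold change -0.08, SE 0.05, edgeR adjusted p = 0.118), and although the test did not pass, each Trim27 library was below each GFP library. Without Trim27 replicate 1 it passed as lower, at -0.12 (edgeR adjusted p = 0.00375). Ndufs4, whose loss in mice gives a model of Leigh syndrome, had 25.7, 26.7, 28.1 and 23.2 CPM in GFP replicates 1 to 4 and 35.9, 27.0, 24.6 and 24.5 CPM in Trim27 replicates 1 to 4 (log2 fold change 0.11, SE 0.11, edgeR adjusted p = 0.352). Trim27 replicate 1 was the highest Ndufs4 library and the groups overlapped. Ndufb3 (log2 fold change 0.05, edgeR adjusted p = 0.743) and Ndufc2 (0.16, adjusted p = 0.221) also overlapped. Without Trim27 replicate 1, Ndufs4 and Ndufb3 gave -0.06 and -0.03.

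By module, including core subunits, 8 of 10 N genes fell and Ndufs1 rose, with a median log2 fold change of -0.95. In the Q module 5 of 6 fell, with a median of -0.87. In the P module, whose core subunits are on the mitochondrial genome and not counted here, 16 of 19 accessory genes fell, with a median of -0.73. The ranges overlapped: N genes ran from -1.58 to 0.39 and P genes from -1.35 to 0.16, and the lowest Q gene was at -1.43. The assignment of subunits to modules follows textbook use.

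Since many subunit mRNAs moved together, their promoters were searched for letters bound by factors with known roles at respiratory genes. The RefSeq table of GRCm38.p6 gave windows from 250 bases before to 50 after the start site for 38 of the 43 members, and Ndufs1, Ndufa2, Ndufb9 and Ndufaf6 were among those without. The core of the NRF1 site, GCGCA and GCGC with 1 base of any kind between them, was found on either strand in the windows of 9 of these 38 members (23.7%), against 5.19% of the 27025 genes of the table and 12.8% of the tested genes with a window. The stretches below lie directly upstream of the start sites of the 7 members with a match there and run 5′ to 3′ on the gene's strand; capitals mark the matches.
Ndufb4 (GRCm38.p6, chr16:37654369-37654568, minus strand): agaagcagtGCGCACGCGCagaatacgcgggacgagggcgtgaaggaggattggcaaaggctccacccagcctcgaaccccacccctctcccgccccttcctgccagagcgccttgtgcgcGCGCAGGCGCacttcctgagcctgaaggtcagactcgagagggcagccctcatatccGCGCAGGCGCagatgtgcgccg
Ndufs6 (GRCm38.p6, chr13:73328483-73328542, minus strand): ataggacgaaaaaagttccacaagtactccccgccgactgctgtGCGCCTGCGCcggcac
Ndufa8 (GRCm38.p6, chr2:36049339-36049398, minus strand): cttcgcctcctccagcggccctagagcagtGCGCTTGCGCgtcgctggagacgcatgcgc
Ndufa5 (GRCm38.p6, chr6:24527691-24527750, minus strand): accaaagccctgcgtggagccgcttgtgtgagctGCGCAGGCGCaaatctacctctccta
Ndufa11 (GRCm38.p6, chr17:56717682-56717761, plus strand): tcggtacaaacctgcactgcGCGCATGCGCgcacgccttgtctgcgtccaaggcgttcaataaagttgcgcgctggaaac
Ndufs5 (GRCm38.p6, chr4:123718187-123718306, minus strand): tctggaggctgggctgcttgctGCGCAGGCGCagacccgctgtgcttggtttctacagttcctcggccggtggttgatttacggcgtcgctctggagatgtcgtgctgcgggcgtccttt
Ndufaf4 (GRCm38.p6, chr4:24897953-24898082, plus strand): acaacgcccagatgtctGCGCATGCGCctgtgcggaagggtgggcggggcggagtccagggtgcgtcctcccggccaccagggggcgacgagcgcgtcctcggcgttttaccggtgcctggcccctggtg

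The Ndufb4 stretch holds 3 matches, at 191, 79 and 22 bases before the start site, and the match nearest to a start site is that of Ndufs6, at 16 bases. In Ndufs6 and Ndufa8 the letters are on the opposite strand and so appear here as their reverse complement. The Ndufa5 match is 26 bases before the start site used here and 190 bases before another start site of the table. Ndufa6 and Ndufaf5 hold a match just after the start site. The 9 members with a match had a median log2 fold change of -0.67, and the 29 without had -0.78. Over all tested genes with a window the order was the other way, 0.10 with a match and 0.26 without. Ndufb4, with 3 matches, fell by 0.44 on the log2 scale, and Ndufs6, with 1, fell by 1.25. AAGATGGC, the letters of the YY1 site, was in 7 of 38 member windows (18.4%), in 3.19% of the table and in 5.81% of the tested genes with a window. These were Ndufa3, Ndufa9, Ndufb8, Ndufc1, Ndufs4, Ndufs6 and Ndufs7, all with the match 23 to 39 bases after the start. Members with a YY1 match had a median log2 fold change of -0.95, and those without had -0.73. The part of either motif in the fold changes was not tested. The letters CCGGAAGT, for ETS factors such as GABP, were in 1 of 38 (2.63%, Ndufs3), in 4.31% of the table and in 10.1% of the tested genes with a window. For TNAAGGTCA, the ESRRA site, these shares were 2.63% (Ndufb4), 1.43% and 0.899%. Matches to different motifs overlapped in no member window.

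The assembly factors split. Ndufaf5, Ndufaf1, Ndufaf3 and Ndufaf7 rose, Ndufaf2, Ndufaf4 and Ndufaf6 fell, and the median log2 fold change of the 7 was 0.62. Of all tested genes 47.5% passed as higher and 38.0% as lower. A log2 fold change of 1 or above was found for 3 of the 7 assembly factors and for 3456 of the 11040 tested genes. Ndufaf5 hydroxylates an arginine of Ndufs7 in an early intermediate. It stood at 8.23, 7.24, 6.70 and 12.0 CPM in GFP replicates 1 to 4 and 53.8, 49.1, 44.6 and 46.8 CPM in Trim27 replicates 1 to 4 (log2 fold change 2.50, SE 0.13, adjusted p = 1.79e-16 by edgeR's quasi-likelihood test). GFP replicate 4 was the highest of its group and still far under every Trim27 library. Ndufaf1, part of the assembly complex that builds the membrane arm, had 10.4, 9.90, 9.80 and 13.4 CPM in GFP replicates 1 to 4 and 54.6, 44.9, 45.4 and 47.7 CPM in Trim27 replicates 1 to 4 (log2 fold change 2.14, SE 0.11, adjusted p = 6.64e-17 by edgeR's test). The groups were wide apart, with GFP replicate 4 again the highest control. Ndufaf3, which binds the early Q module together with Ndufaf4, had 21.6, 21.3, 23.1 and 18.5 CPM in GFP replicates 1 to 4 and 53.3, 59.0, 57.2 and 55.0 CPM in Trim27 replicates 1 to 4 (log2 fold change 1.41, SE 0.09, adjusted p = 4.15e-15 by edgeR's test). The 4 libraries of each group lay close together and far from the other group. Ndufaf3, Ndufaf1 and Ndufaf5 were higher under all 20 alternative settings.

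Ndufaf7 is an arginine methyltransferase of the mitochondrial matrix. It had 13.8, 17.2, 13.8 and 15.01 CPM in GFP replicates 1 to 4 and 23.5, 20.9, 24.1 and 23.8 CPM in Trim27 replicates 1 to 4 (log2 fold change 0.62, SE 0.11, adjusted p = 1.26e-05 by edgeR's test), with no overlap but a narrow gap, between GFP replicate 2 and Trim27 replicate 2. Ndufaf4 went the other way from its partner Ndufaf3, with 77.0, 90.8, 79.8 and 86.4 CPM in GFP replicates 1 to 4 and 74.9, 57.7, 59.97 and 64.3 CPM in Trim27 replicates 1 to 4 (log2 fold change -0.38, SE 0.08, adjusted p = 4.46e-05 by edgeR's test). Its groups were close, since Trim27 replicate 1 was just below the lowest GFP library. Ndufaf2 had 86.0, 85.2, 84.2 and 81.1 CPM in GFP replicates 1 to 4 and 53.4, 43.3, 48.7 and 51.8 CPM in Trim27 replicates 1 to 4 (log2 fold change -0.77, SE 0.07, adjusted p = 3.09e-11 by edgeR's test), so it fell along with its paralog Ndufa12 and by less. The annotation places a long noncoding gene, B230220B15Rik, over Ndufaf2 on the opposite strand, and the sources used here do not give the strand setting of the counting. Ndufaf6, a protein related to phytoene and squalene synthases, had 22.2, 18.3, 24.5 and 22.3 CPM in GFP replicates 1 to 4 and 14.4, 18.4, 18.8 and 18.5 CPM in Trim27 replicates 1 to 4 (log2 fold change -0.32, SE 0.12, adjusted p = 0.0165 by edgeR's test). Its groups overlapped, and without GFP replicate 3 it did not pass, at -0.26 (edgeR adjusted p = 0.0653). With library size alone Ndufaf2 was the only one of the 7 assembly factors still called lower, and with the abundant-gene length trend removed only Ndufaf4 was.

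**Figure D2:**
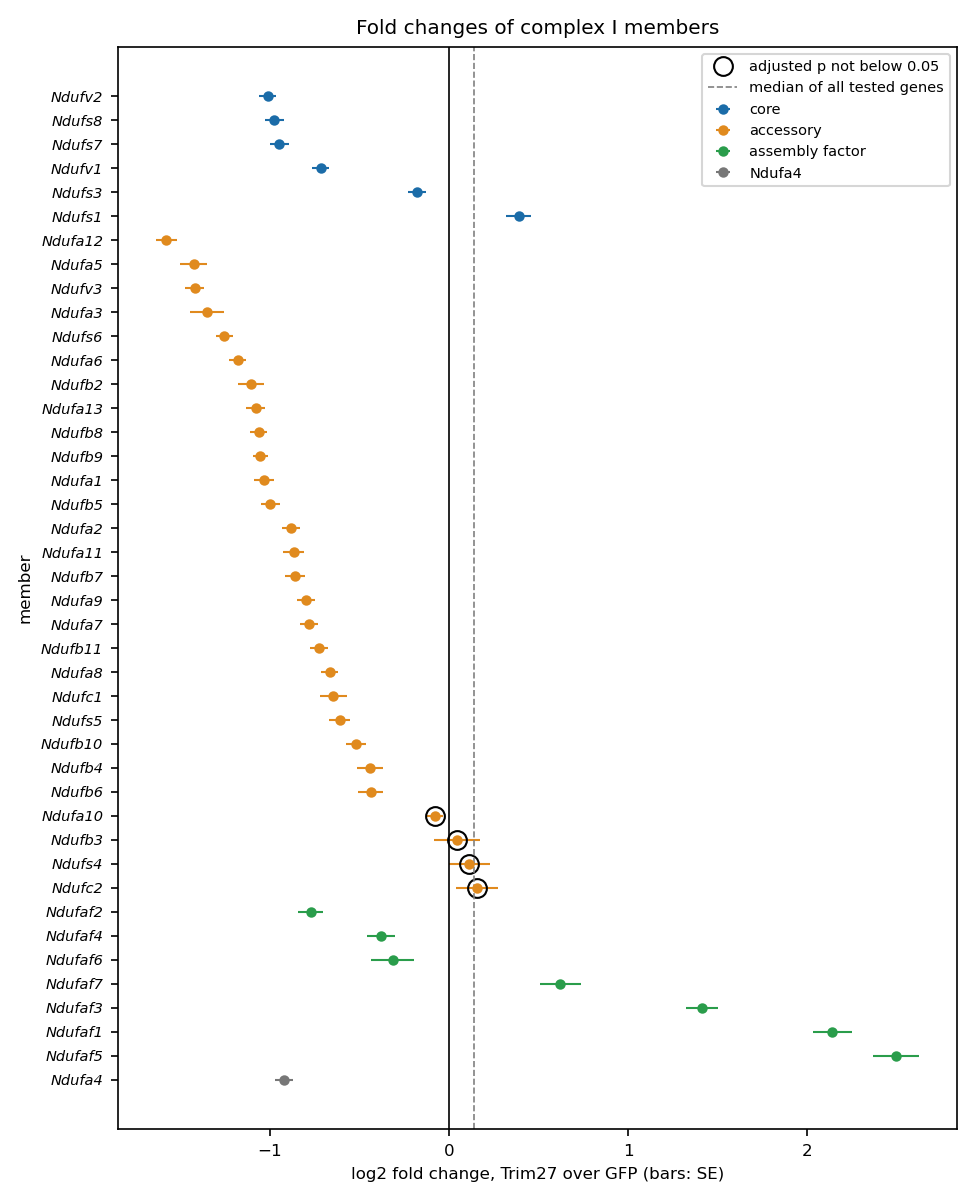
Log2 fold change of 42 of the 43 members, Trim27 over GFP (horizontal axis), with bars of 1 SE, by class; rings mark members whose adjusted p was not below 0.05 and the dashed line marks the median of all tested genes, 0.14. Subunits lie between -1.58 and 0.39, and 4 of the 7 assembly factors lie above 0.6.

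Ndufa4, once counted in complex I, had 376, 381, 378 and 381 CPM in GFP replicates 1 to 4 and 215, 184, 198 and 204 CPM in Trim27 replicates 1 to 4 (log2 fold change -0.92, SE 0.05, adjusted p = 2.99e-16 by edgeR's test). It fell about as much as the median accessory gene, with no overlap between the groups. The acyl carrier subunit Ndufab1 is outside the symbol rule and was looked up after values were seen. It fell from 407 ± 22.6 to 266 ± 15.3 CPM (SD, n = 4 each; log2 fold change -0.62, SE 0.05, adjusted p = 5.2e-12 by edgeR's test).

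Summed over genes, the 7 core mRNAs came to 4541 ± 42.0 CPM with GFP and 2756 ± 96.8 CPM with Trim27, and the 28 accessory mRNAs to 9254 ± 198 and 4943 ± 98.2 CPM (SD, n = 4 each). The 7 assembly mRNAs came to 244.9 ± 5.23 and 307 ± 15.2 CPM. Subunit counts per assembly factor count were, in the order of the replicates, 59.0, 54.4, 56.8 and 55.3 with GFP and 22.7, 26.9, 26.1 and 24.9 with Trim27. This ratio is made within a library and does not depend on its scaling, and its groups were far apart. Subunit mRNAs had medians of 7.96 log2 CPM and 763 bases. Assembly factor mRNAs were scarcer and longer, at 4.52 log2 CPM and 1379 bases. Over all tested genes the median log2 fold change was -0.19 from 6 to 8 log2 CPM and 0.03 from 4 to 6. By length it was -0.56 from 500 to 1000 bases and 0.03 from 1000 to 2000. The part of abundance and length in the ratio was not tested.

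Levels per kilobase of transcript show how unequal the members were. In the GFP group Ndufb9, a distal membrane arm subunit, led with 1796 CPM per kb, followed by Ndufs7 with 1339.8 and Ndufs6 with 1229 CPM per kb. At the other end were Ndufaf5, Ndufaf1 and Ndufaf7 with 7.33, 7.88 and 8.55 CPM per kb. Ndufs4 and Ndufb3 were low for subunits, at 15.3 and 18.1 CPM per kb. Ndufb3 has a near copy, Gm45930 (96.8% identity over 282 bases), and how reads matching both were counted is not given. With Trim27 the order at the top was Ndufb9 (866 CPM per kb), Ndufs7 (695) and Ndufa2 (569.6). Ndufaf5 moved from rank 43 of 43 to rank 35, at 41.7 CPM per kb, and Ndufaf7 became the lowest, at 13.2 CPM per kb. Transcript lengths come from another annotation release than the authors' counting, so these levels are approximate.

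Replicates of abundant subunits were tight. The median coefficient of variation (SD over mean CPM of a group's 4 libraries) was 3.63% for core and 3.9% for accessory genes in the GFP group, and 6.44% and 6.95% in the Trim27 group. For the less abundant assembly factors it was 10.9% and 9.05%. Within its group, Trim27 replicate 1 was the highest library for 17 members and the lowest for 17 others, and so at either end for 34 of 43. GFP replicate 1 was at either end for 28.

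The fold changes of all genes followed transcript length, and complex I subunits are short. Over all tested genes the median log2 fold change was -0.81 up to 500 bases, -0.56 from 500 to 1000, 0.03 from 1000 to 2000 and 0.36 from 2000 to 4000 bases. The members in the same bins had medians of -1.03 (3 genes), -0.86 (22 genes), -0.32 (15 genes) and -0.08 (3 genes). Between 500 and 1000 bases 90.9% of members and 64.1% of all tested genes passed as lower. Among the accessory genes, the 21 up to 1000 bases had a median of -0.86 and the 7 longer ones -0.997. Against tested genes of like length and abundance, 11 of 28 accessory genes, 3 of 7 core genes and 4 of 7 assembly factors lay above their bin's median. Below the 10th percentile of their bins were Ndufa12, Ndufa13, Ndufa5, Ndufa6, Ndufb5, Ndufb8, Ndufs6, Ndufv3 and the core gene Ndufv2. Above the 90th were Ndufaf1 and Ndufaf5, whose bin had a median of 0.03 and a 90th percentile of 1.43. The part of length in the members' results was not tested.

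**Figure D3:**
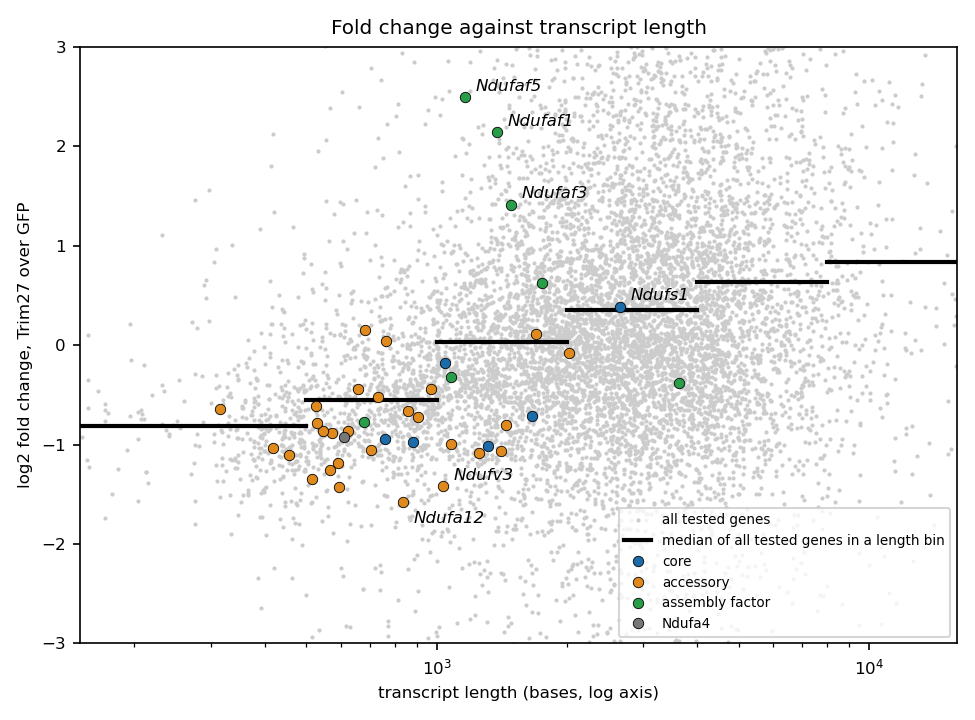
Log2 fold change, Trim27 over GFP (vertical axis, cut at -3 and 3), against transcript length in bases (log axis), for all tested genes (grey) and 42 of the 43 members by class; black bars are medians of all tested genes in length bins. The bars climb from -0.81 to 0.83 with length, and most subunits sit in the short bins. Ndufaf5, Ndufaf1 and Ndufaf3 lie above the median of their length bin, 0.03. They are within its 10th to 90th percentiles, -1.33 to 4.32, of which the upper end is past the cut axis.

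**Figure D4:**
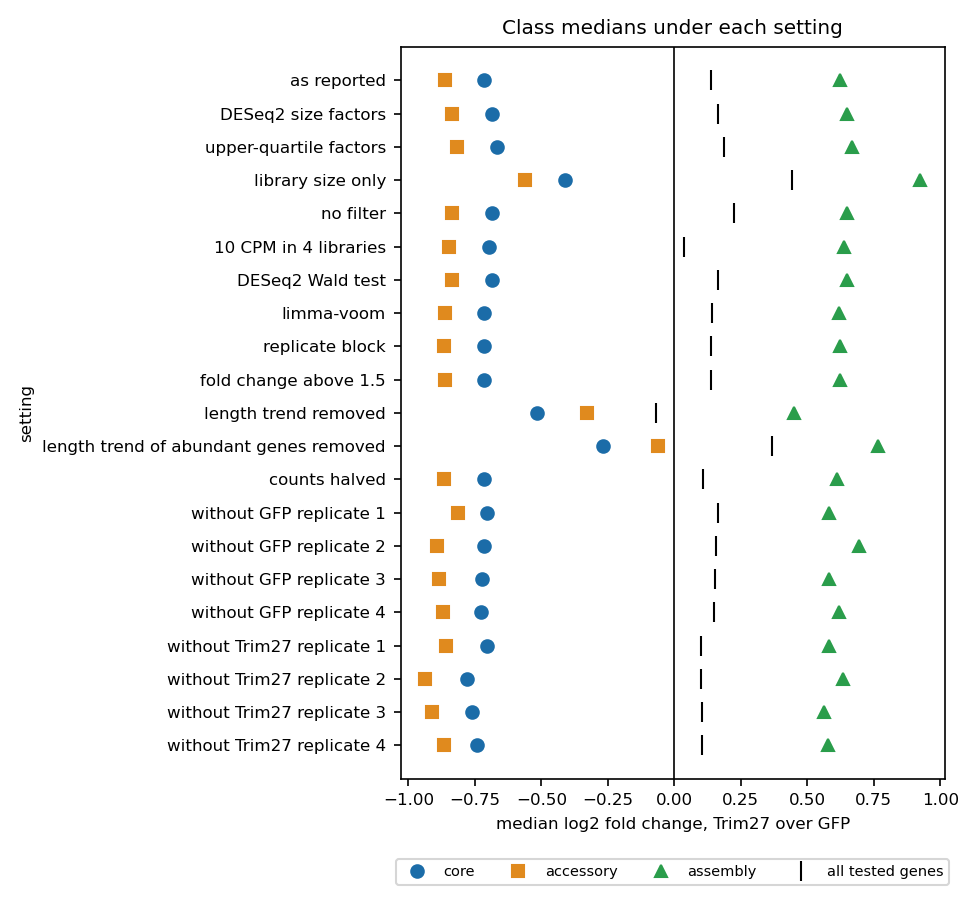
Median log2 fold change of the core, accessory and assembly genes and of all tested genes (horizontal axis) in the fit as reported and under each of the 20 alternatives (rows). Core and accessory medians are below 0 and assembly medians above 0 in every row, and with the abundant-gene length trend removed the accessory median is -0.06.

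Under the 20 alternatives the core median ran from -0.78 to -0.27, the accessory median from -0.94 to -0.06 and the assembly median from 0.45 to 0.93. With the length trend removed 21 accessory genes fell and 3 rose, and with that of abundant genes removed 12 fell and 8 rose. Library size alone gave 22 falls and 4 rises among the accessory genes, and 4 falls and 3 rises among the core genes. The calls over all tested genes moved in these settings too, as given above.

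The core subunits encoded on the mitochondrial genome form the membrane arm. Of 7 listed, 6 had enough counts, with a median of -0.29. Among these, mt-Nd1 and mt-Nd5 fell and mt-Nd4 rose, where 38.0% of all tested genes passed as lower and 47.5% as higher. mt-Nd5, a proton-pumping subunit at the tip of the membrane arm, had 110.0, 122, 107 and 119 CPM in GFP replicates 1 to 4 and 71.1, 56.9, 67.3 and 63.6 CPM in Trim27 replicates 1 to 4 (log2 fold change -0.82, SE 0.07, adjusted p = 4.03e-12 by edgeR's test). mt-Nd4, its neighbour in the arm, had 264, 275, 245 and 266 CPM in GFP replicates 1 to 4 and 362, 315, 315 and 344 CPM in Trim27 replicates 1 to 4 (log2 fold change 0.35, SE 0.05, adjusted p = 7.99e-07 by edgeR's test). Neither gene had overlapping groups. mt-Nd1, which lines the quinone channel, went from 836 ± 60.2 to 637 ± 90.4 CPM (log2 fold change -0.39, edgeR adjusted p = 6.70e-04). mt-Nd2 (-0.24, adjusted p = 0.126), mt-Nd3 (-0.34, adjusted p = 0.39) and mt-Nd6 (0.05, adjusted p = 0.723) did not pass in edgeR's test. The value of mt-Nd3 is uncertain (SE 0.37), since it had only 140 counts in all. mt-Nd4l had 27 counts in all and was not tested.

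Among 10 assembly factors without an Ndufaf name, 8 were tested, 5 fell and 2 rose, with a median of -0.27. The shares over all tested genes were 38.0% lower and 47.5% higher. Acad9 and Timmdc1 work with Ndufaf1 on the membrane arm. Acad9 had 149, 163, 143 and 149 CPM in GFP replicates 1 to 4 and 74.5, 75.0, 78.5 and 76.4 CPM in Trim27 replicates 1 to 4 (log2 fold change -0.99, SE 0.06, adjusted p = 1.04e-15 by edgeR's test), and Timmdc1 had 81.3, 71.3, 74.4 and 71.2 CPM in GFP replicates 1 to 4 and 36.2, 37.4, 34.9 and 34.9 CPM in Trim27 replicates 1 to 4 (log2 fold change -1.05, SE 0.07, adjusted p = 5.00e-14 by edgeR's test). Both went down in all Trim27 libraries while Ndufaf1 went up in all. The 2 that rose, named after their values were seen, were Nubpl, an iron-sulfur carrier for complex I (1.07), and Tmem186 (0.33). The other 3 that fell, also named after seeing values, were Ecsit (-1.01), Tmem70 (-0.15) and Dmac1 (-0.38, listed as Tmem261).

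Subunits of the other respiratory complexes were mostly lower with Trim27 too. Of 38 nuclear subunits of complexes II to V, 32 fell and 4 rose, with a median of -0.72 against -0.86 for the 35 core and accessory genes of complex I. Over all tested genes 38.0% passed as lower and 47.5% as higher. All 9 listed subunits of complex III and all 10 of complex IV fell, with medians of -0.57 and -0.91. Uqcr11 and Uqcr10, small complex III subunits, fell by 1.61 and 1.34 on the log2 scale, and Cox5a and Cox5b of complex IV fell by 1.15 and 1.04. In complex V, ATP synthase, 11 of 15 fell, with Atp5j2 and Atp5e at -1.44 and -1.37. The 2 that rose, named after their values were seen, were Atp5a1 (0.50) and Atp5b (0.17), which form the catalytic head. In complex II, succinate dehydrogenase, Sdhd and Sdhb fell (-0.60 and -0.38) and Sdha and Sdhc rose (0.40 and 0.25).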

How the data were processed

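RNA of 4 GFP and 4 Trim27 libraries was measured by sequencing. Polyadenylated RNA was used for transposase-based libraries (Nextera XT), per the labels' protocols. The authors deposited raw read counts per gene symbol in 1 table. HISAT2, featureCounts, bcl2fastq and build NCBIM37 are listed, with no role, per the submitters' processing notes. The sources used here do not give versions, annotation release, strand setting or treatment of multiply matching reads. Small counts (1 to 10) were even in 68.4% to 72.0% of cases with GFP and 64.7% to 67.0% with Trim27, so pairs may have been counted as 2 reads. A line without a gene name held 0 counts and was left out.

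Counts were fitted in R 4.3.3 with edgeR 4.0.16 (CPM relative to TMM-scaled library sizes, filterByExpr with minimum count 10 and minimum total count 15, robust quasi-likelihood test, 2-sided, no covariate), with Benjamini-Hochberg adjustment over 11040 genes and a threshold of 0.05. All 8 libraries entered the fit. Same-numbered libraries were not treated as pairs in the fit. Their deviations correlated at -0.03 to 0.02, which cannot show whether they shared cells or a batch. The lowest chi-square per degree of freedom between libraries of a group was 2.60, so none was a copy of another. Transcript lengths came from GENCODE M21 and promoters from RefSeq (GRCm38.p6), another build than the counting, so no other coordinates are given. Near-identical copies (at least 95% identity over 100 bases) were found with blastn 2.17.0. The 7 members with such a copy were Ndufa12, Ndufb3, Ndufb4, Ndufb11, Ndufs3, Ndufs5 and Ndufs6. The fit was tested on simulated data. Alternatives used DESeq2 1.42.0 and limma 3.58.1.

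Single values of 1 member and of 1 gene of a related list are not reported here; all counts and medians include them. Library values are given for the core genes, the Ndufaf genes, Ndufa4 and the 6 largest accessory falls past the threshold (no accessory gene rose), with up to 2 genes of smallest p from each related list. The members and lists were chosen with earlier results of these data known.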

Additional observations from a re-analysis of the deposited data

Results flagged for a closer look

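In 86 groups of 4 libraries (43 members in each of the 2 groups), 4 held a library whose distance to the nearest other library took up most of the group's range; chance alone marks about 1 in 20 groups. Ndufa13 was at 535 CPM in GFP replicate 1, against 499.7 to 504 CPM in the other GFP libraries. Ndufaf1 was at 13.4 CPM in GFP replicate 4, against 9.80 to 10.4 CPM in the others. Ndufaf6 was at 14.4 CPM in Trim27 replicate 1, against 18.4 to 18.8 CPM in the others. Ndufb10 was at 175 CPM in Trim27 replicate 1, against 200.5 to 205 CPM in the others. Without the library in question the log2 fold changes of these 4 genes had the same sign and passed the same threshold.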

How the results depend on the processing

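Over 20 alternatives, 786 of 840 fold changes of single members kept their direction and their side of the threshold. With the direction kept, 23 no longer passed and 10 newly passed. The other 21 changed sign, and some of these crossed the threshold as well. With the replicate number as a block, 5 members rose and 33 fell, as without it, and over all genes 5133 rose and 4027 fell. With library size alone 11 members rose (3 core, 4 accessory) and 1 assembly factor fell; Ndufa10 and Ndufs3 turned to 0.23 and 0.12. With a fold change above 1.5 required, 3 members and 0 core genes rose, 1 assembly factor fell, and 2452 of all genes fell. The filter of 10 CPM left 3453 rises over all genes. With the length trend removed 0 core and 3 accessory genes rose, and Ndufb6, Ndufc1, Ndufs1, Ndufs3, Ndufs4 and Ndufs5 turned to 0.0693, 0.23, -0.0091, 0.0441, -0.0346 and 0.0321. With that of abundant genes removed 15 members rose (3 core, 8 accessory) and 17 fell (12 accessory, 1 assembly), and the following turned: Ndufa1 0.0155, Ndufa10 0.0181, Ndufa11 0.022, Ndufa7 0.13, Ndufaf6 0.13, Ndufb10 0.18, Ndufb4 0.0803, Ndufb6 0.33, Ndufc1 0.57, Ndufs3 0.29 and Ndufs5 0.30. Leaving out single libraries gave -0.0341 to 0.0816 for Ndufb3 and -0.0594 to 0.15 for Ndufs4. The cause of these changes was not tested, except that glmTreat asks for a larger change and a stricter filter tests fewer genes. If pairs were counted as 2 reads, the depth is overstated; with counts halved the member calls were 5 and 33.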

Other observations

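Genes that build iron-sulfur clusters, the electron carriers of the matrix arm of complex I, were mostly lower with Trim27. Of 12 listed, 8 fell and 3 rose by edgeR's quasi-likelihood test, with a median log2 fold change of -0.63. Of all tested genes 38.0% passed as lower and 47.5% as higher in that test. Glrx5, a carrier of clusters, stood at 279, 264, 260.3 and 267 CPM in GFP replicates 1 to 4 and 129.7, 131, 128 and 122 CPM in Trim27 replicates 1 to 4 (log2 fold change -1.07, SE 0.05, adjusted p = 7.50e-18 by edgeR's test), and its groups did not overlap.

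Regulators of mitochondrial gene expression moved in both directions: of 11 tested of 12 listed, 6 rose and 3 fell, with a median of 0.57. These counts stand beside 47.5% of all tested genes that passed as higher and 38.0% as lower. The median transcript length of the tested regulators was 3656 bases, and all tested genes from 2000 to 4000 bases had a median of 0.36. Esrra, an orphan nuclear receptor of respiratory genes, had 91.1, 78.2, 90.9 and 80.9 CPM in GFP replicates 1 to 4 and 24.5, 19.7, 23.2 and 19.8 CPM in Trim27 replicates 1 to 4 (log2 fold change -1.96, SE 0.08, adjusted p = 1.32e-18 by edgeR's test). Gabpb1, a GABP subunit, had 1.49, 0.213, 0.957 and 1.23 CPM in GFP replicates 1 to 4 and 29.2, 24.5, 27.7 and 29.8 CPM in Trim27 replicates 1 to 4 and rose. Among 6 tested genes that feed electrons to ubiquinone beside complex I, Dhodh and Etfb fell (-1.22 and -0.77) and 4 rose, which were, named after their values were seen, Gpd2 (1.79), Etfa (0.78), Etfdh (0.48) and Prodh (0.25).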
